A study of Vitis vinifera with 165 samples.

Results

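Pericarp of Pinot noir berries sampled on day -14, counted in days from veraison, was compared between the seasons 2014 and 2013. The comparison used 12 of the 165 libraries of the series, 6 from each season, and was chosen by season and time point. Pinot noir is a red wine grape (Vitis vinifera), grown here as clone FPS 23 on Freedom rootstock near Modesto, California. The groups were 2014 with 50% of clusters removed, 2014 with 75% removed, 2013 with 50% removed and 2013 with 75% removed, with 3 samples each. All vines had thus been thinned after fruit set, and the unthinned control that the labels describe was not analysed here. Each sample was a pool of 60 berries, ground with the seeds taken out, and no label ties a replicate number to a row or vine block. P-values therefore measure the spread between these pooled samples.

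A grape berry first grows as a hard, green, acid fruit that stores little sugar. At veraison it softens, colours and begins to fill with hexose sugars, and a large part of the transcriptome changes within days. Berries taken on the same day before veraison can therefore stand at different points of green development, and sugar content tells how far they have come.

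The deposited gene models carry only VIT identifiers, and none of them matched the annotation used here, so no gene names or roles are given. For each comparison, at most 2 gene models that were higher or rose and 2 that were lower or fell are shown. In this numbering the digits before the s stand for the chromosome, and 00 stands for sequence not placed on any chromosome. Without gene names the labelled tissue could not be checked against marker genes. In pooled berries, fewer cells of a type and less RNA per cell cannot be told apart.

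Expression was given in RPKM, which scales read numbers to the length of the gene model and to the mapped reads of the library. Total RPKM lay between 925200 and 976828 in the 2014 libraries, against 939553 to 1034718 in the 2013 libraries, and an RPKM of 1 was reached by 16918 to 17512 gene models in 2014, against 17217 to 17618 in 2013. Read counts were not given, so absolute depth is unknown. The step that 1 read adds to low values gave relative depths of 0.948 to 1.10 in 2014 and 0.781 to 1.45 in 2013, where 1 is the median of the 12 libraries. Log2 values correlated at 0.953 to 0.993 across genes between libraries of one season, and at 0.910 to 0.944 between seasons. Replicate 2 of 50% thinning in 2014 stood somewhat apart from the other 2014 libraries, with correlations of 0.966 to 0.974. The first principal component held 58.4% of the variance and separated the seasons. The labels give no sequencing batch, and every library of a season shares that season, so differences between the berries of the seasons, their libraries and the processing cannot be told apart.

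On day -14 the berries of 2014 held less sugar than those of 2013. Sugar was 0.71, 0.94 and 0.69 g per 100 ml at 50% thinning and 0.81, 0.86 and 0.80 at 75% thinning in 2014, against 1.20, 1.39 and 1.16 at 50% and 1.41, 1.29 and 0.99 at 75% in 2013. The highest sample of 2014 lay below the lowest of 2013. The means were 0.802 ± 0.093 g per 100 ml in 2014 and 1.24 ± 0.16 in 2013 (SD, n = 6 each). The difference of -0.438 g per 100 ml was past the threshold (exact two-sided permutation test within thinning levels, p = 0.005, the smallest the design can give).

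The next 2014 samples, on day -6, held 1.48 to 2.01 g per 100 ml, against 2.98 to 5.04 on day -7 of 2013. On day 0 the labels give 1.40 to 2.15 g per 100 ml in 2014 and 9.25 to 11.12 in 2013. Sugar of 2014 thus covered about the same range on days -6 and 0, and lay at 11.32 to 13.49 on day 7. On day 0 of 2014, at this low sugar, VIT_13s0067g02930 averaged 1919 RPKM, against 1694 in 2013, and VIT_06s0061g00550 averaged 2968, against 2857. Both gene models were picked in part for having few lower calls on later days, so similar levels on day 0 were likely beforehand. Whether the sugar or the day label of these 2014 samples is right was not tested, so the alignment of the seasons on day 0 is uncertain. In 2012, berries of day -18 held 0.93 to 1.29 g per 100 ml, those of day -28 held 0.48 to 0.59 and those of day -9 held 4.21 to 6.11. On day -14, berries of 2014 were between the 2012 samples of days -28 and -18 in median sugar, and those of 2013 were between days -18 and -9.

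**Figure D1:**
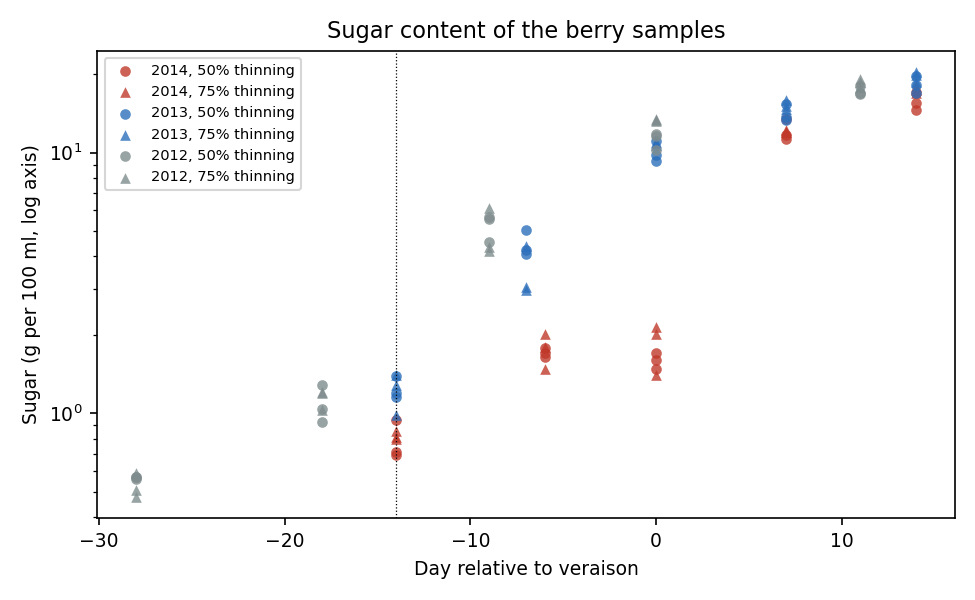
Sugar content (g per 100 ml, log axis) against the day relative to veraison, up to day 14, with 1 point per sample, circles for 50% and triangles for 75% thinning. On day -14, marked by the dotted line, all 6 samples of 2014 lie at 0.94 or below and all 6 of 2013 at 0.99 or above.

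Of 29971 gene models, the 18244 that reached 1 RPKM in 3 or more of the 12 libraries were tested by limma on log2(RPKM + 1), with thinning level as a covariate. A gene model was called at an adjusted p of at most 0.05 (Benjamini-Hochberg) and a log2 change of at least 1 in either direction. The seasons differed in 1494 gene models, 8.19% of those tested. Of these, 534 were higher in 2014 (2.93%) and 960 were lower in 2014 (5.26%). Without the requirement on size, 11421 gene models passed, 4625 higher and 6796 lower in 2014. The median log2 change over all tested gene models was -0.06. After quantile normalization, which moved that median to 0.03, 46.9% of the calls were higher in 2014, against 35.7% without it.

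Gene models with a median RPKM below 0.1 over all 63 libraries of 2014 were set apart, since they may reflect processing, and are described separately further on. Without them, 471 gene models were called higher and 802 lower in 2014. In 440 of the 471 and 732 of the 802, no 2014 library overlapped any 2013 library. Among all tested gene models the seasons did not overlap in 41.7%. The higher group had a median level of 21.5 RPKM in 2014 and 7.44 in 2013. The lower group had a median level of 4.23 RPKM in 2014 and 14.4 in 2013.

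The changes were of unequal size in the 2 directions. Among the gene models not set apart, the largest increase was 3.52 and the largest decrease was -7.43 on the log2(RPKM + 1) scale. Set apart gene models went beyond both, with VIT_18s0041g00720 at 6.06 and VIT_13s0067g01160 at -8.60. Of those not set apart, 62 higher in 2014 and 133 lower in 2014 reached a log2 change of at least 2. None of the higher ones and 13 of the lower ones passed a log2 change of 4.

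**Figure D2:**
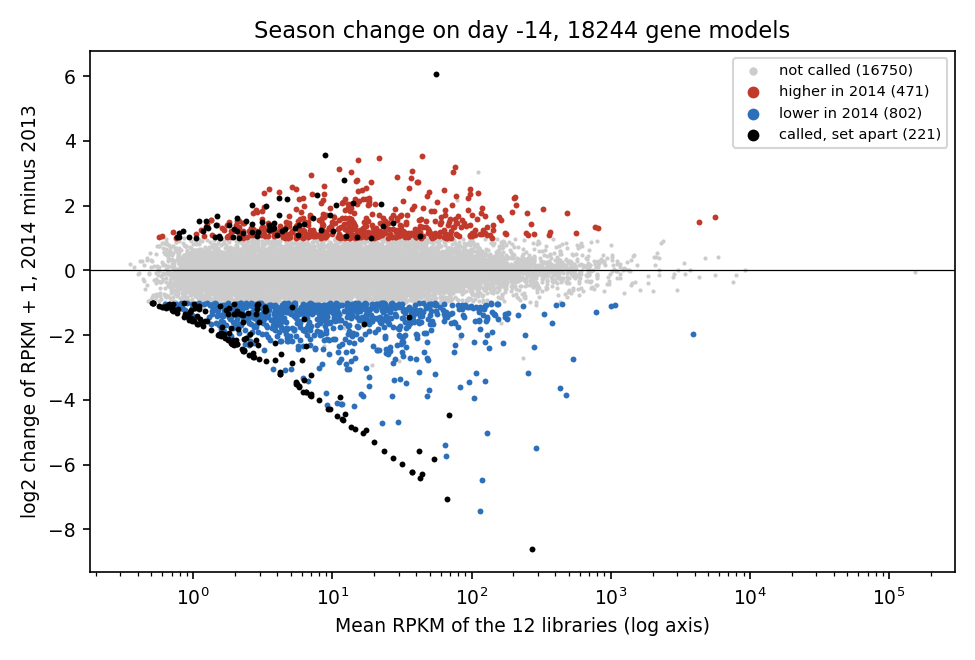
Log2 change of RPKM + 1, 2014 minus 2013, against the mean RPKM of the 12 libraries (log axis), with 1 point per tested gene model on day -14. The 471 gene models called higher reach 3.52, the 802 called lower reach -7.43, and many of the 221 called gene models that were set apart (black) lie on the lower edge, where 2014 is at or near 0.

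The gene model with the largest increase among those not set apart was VIT_01s0026g00200. Its RPKM had a lowest, median and highest value of 57.4, 81.5 and 100.2 in 2014, against 3.79, 6.29 and 9.07 in 2013. Every 2014 library was above every 2013 library. Means were 81.8 ± 16.9 RPKM in 2014 and 6.33 ± 2.04 in 2013 (SD, n = 6 each), and the log2 change was 3.52 ± 0.17 (standard error, by limma, adjusted p = 1.17e-08).

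VIT_09s0002g03140 was next, with 20.5, 36.0 and 63.6 RPKM as lowest, median and highest in 2014, against 0.791, 2.15 and 5.84 in 2013. The seasons did not overlap, though the libraries of each season spread more widely than for the first gene model. Its log2 change was 3.49 ± 0.36 (standard error, by limma, adjusted p = 5.18e-06).

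The gene model with the largest decrease among those not set apart, VIT_00s1603g00010, lies on unplaced sequence. It was listed at 0 in 3 of the 6 libraries of 2014 and reached 1.23 RPKM there, against 181, 240 and 254 RPKM as lowest, median and highest in 2013. Its log2 change was -7.43 ± 0.18 (standard error, by limma, adjusted p = 4.67e-11).

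VIT_13s0067g02930 followed, with 0.442, 0.951 and 1.83 RPKM in 2014 as lowest, median and highest, against 54.2, 242 and 448 in 2013. The seasons were far apart, but the 2013 libraries differed among themselves by more than those of the 3 gene models before. Its log2 change was -6.47 ± 0.49 (standard error, by limma, adjusted p = 4.26e-07).

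**Figure D3:**
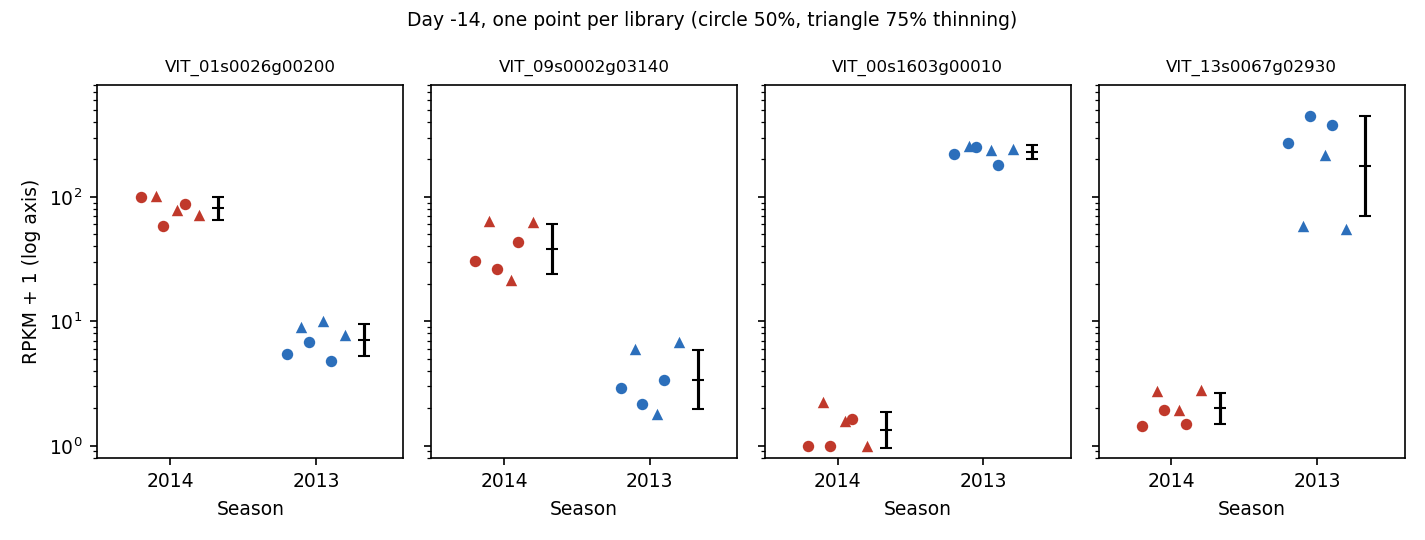
RPKM + 1 (log axis) on day -14 of the 4 gene models with the largest increases and decreases among those not set apart. There is 1 point per library, with circles for 50% and triangles for 75% thinning. Bars show the mean and SD of the 6 log2 values of a season. In each panel the 2014 points (left) and the 2013 points (right) do not overlap.

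The calls average over both thinning levels. For the higher group the median log2 change was 1.23 at 75% and 1.38 at 50% thinning, and for the lower group it was -1.33 at 75% and -1.40 at 50%. A test of the difference itself, the interaction of season and thinning, passed for 1 gene model, 0.00548% of those tested (limma, adjusted p = 0.0266), and 1020 were at an unadjusted p under 0.05. That gene model, VIT_08s0007g08330, had 0.0458, 0.127 and 0.0238 RPKM at 50% thinning and 0.163, 0.0221 and 0 at 75% in 2014. In 2013 it had 8.54, 17.8 and 13.1 RPKM at 50% and 0.160, 0.898 and 0.406 at 75%. It was thus low in 2014 at both levels and high in 2013 at 50% thinning, and it passed the filter only through those 3 libraries. The call was lost with a pseudocount of 0.1 (limma, adjusted p = 0.534), with no filter (adjusted p = 0.0644), and when any 1 of the 6 libraries of 2014 was left out (adjusted p = 0.0532 to 0.148). Leaving out replicate 1 or 3 of 75% thinning in 2013 also ended it (limma, adjusted p = 0.0894 and 0.149), and with any 1 of the 3 libraries of 50% thinning in 2013 left out the gene model was not tested.

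The calls of day -14 were then followed on the 7 later days sampled in both seasons, in libraries that the test of day -14 did not use. The later libraries of 2014 did enter the median that set gene models apart. Both groups had therefore lost gene models that were low through 2014, and the counts below depend in part on that choice. On day -6 of 2014 against day -7 of 2013, 4.11% of 18275 tested gene models were higher and 3.41% lower in 2014. Of the 471 gene models higher on day -14, 467 were tested, 109 were again higher and 3 were lower. Of the 802 lower ones, 796 were tested, 307 were again lower and 8 were higher. These are 14.5% of all gene models higher and 49.2% of all gene models lower on that day. From day 0 on, few of the higher group were called again, on days when at most 1.30% of all tested gene models were higher. On day 0, 416 of them were tested, 6 were higher and 5 lower (all tested: 0.211% higher, 2.10% lower). On day 7, 10 of 400 were higher and 1 lower (0.501% higher, 3.54% lower), and on day 14, 20 of 374 were higher and 12 lower (1.30% higher, 3.15% lower). On day 21, 9 of 347 were higher and 11 lower (0.660% higher, 2.56% lower). On day 28, 10 of 330 were higher and 38 lower (0.292% higher, 3.52% lower). On day 28 lower calls thus outnumbered higher ones in the group and over all tested, and the share of lower calls was larger in the group. This was not tested. On days 0, 7 and 14 the group had more higher than lower calls. On day 35, 3 of 300 were higher and 2 lower (0.0782% higher, 2.57% lower).

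Of the lower group, 190 of 777 tested were again lower on day 0 and 8 were higher. The numbers were 200 of 762 and 14 on day 7, 188 of 740 and 33 on day 14, and 181 of 731 and 20 on day 21. They were 193 of 726 and 8 on day 28, and 174 of 714 and 0 on day 35. Over all tested gene models, 2.10% to 3.54% were lower and 0.0782% to 1.30% higher on these days, as given above by day.

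Most gene models of both groups were not called on more than 1 later day, but a part of the lower group was called on all of them. Of the higher gene models, 455 of 471 were called again on 0 or 1 later days, and of the lower ones 554 of 802. These counts include gene models that did not pass the filter on a later day and were not tested there. None of the higher group was called on more than 3 later days. In the lower group, 105 gene models (13.1%) were lower in 2014 on all 7 later days. Their median level on day -14 was 3.14 RPKM in 2014 and 19.2 in 2013. Over all tested gene models, 2.10% to 3.54% were lower on a given later day. How many of all tested were lower on all 7 was not computed.

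**Figure D4:**
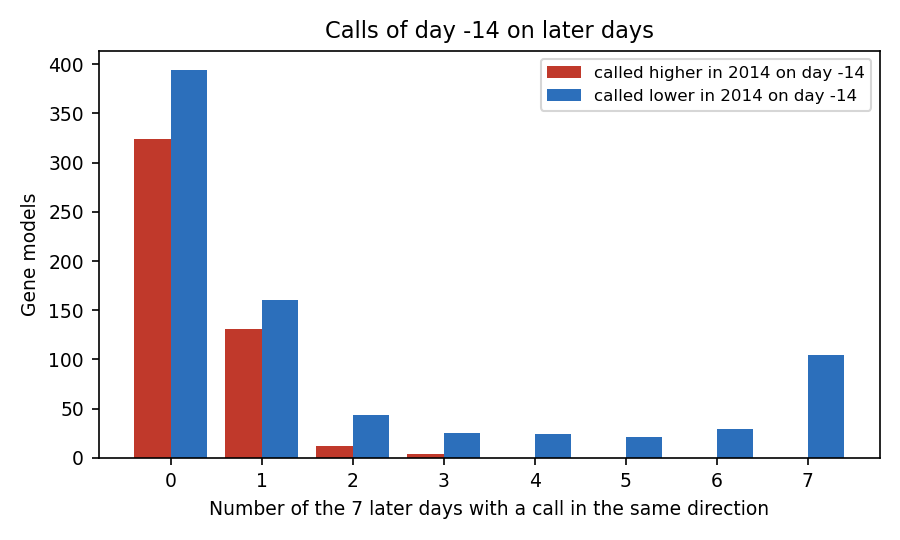
Number of gene models called on day -14 against the number of the 7 later days on which the call was made again in the same direction, for those higher (left bars) and lower (right bars) in 2014. The higher group ends at 3 later days, and the lower group has a second peak of 105 gene models at 7.

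Of the gene models lower in 2014 on all 7 later days, 58 of 105 had identifiers of unplaced sequence, 55.2%. The same share was 7.62% of all tested gene models, 18.7% of the lower group and 3.82% of the higher group. It was 5.33% of the 394 gene models of the lower group that were called on no later day.

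VIT_00s1603g00010, the gene model of the lower group with the largest decrease, was one of the 105. It averaged 0.735 ± 0.385 RPKM on day 0 in 2014 and 191 ± 12 in 2013, and 0.587 ± 0.726 on day 35 in 2014 and 149 ± 11 in 2013 (SD, n = 6 each). Its level in 2012 was 309 ± 41 RPKM on day -18. The gene model thus stayed near 0 through 2014 and between 100 and 400 RPKM in the other seasons.

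VIT_18s0001g13240 was also lower on all 7 later days. It had 0.129, 1.69 and 2.84 RPKM as lowest, median and highest on day -14 in 2014, against 111, 130 and 144 in 2013. On day 35 its mean was 0.143 ± 0.178 RPKM in 2014 and 859 ± 108 in 2013 (SD, n = 6 each). In 2014 it thus stayed below 3 RPKM in the means of all days, while in 2013 its mean was higher late in ripening than on day -14.

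In the higher group, 4 gene models were called on 3 later days, the most in that group. The 2 of them with the largest changes were VIT_08s0007g00330 and VIT_16s0098g01900. VIT_16s0098g01900 had 184, 254 and 262 RPKM as lowest, median and highest in 2014, against 66.8, 78.1 and 106 in 2013 (log2 change 1.55 ± 0.10 SE by limma, adjusted p = 9.78e-08). By day 35 it averaged 0.747 ± 0.279 RPKM in 2014 and 0.750 ± 0.166 in 2013 (SD, n = 6 each). VIT_08s0007g00330 had 125, 327 and 507 RPKM in 2014 and 20.6, 62.9 and 177 in 2013, and its seasons overlapped (log2 change 2.25 ± 0.44 SE by limma, adjusted p = 0.000874). At 50% thinning alone its log2 change of 1.41 did not pass (limma, adjusted p = 0.085), against 3.08 at 75% thinning.

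Berries of 2012 before veraison, whose libraries the season comparison did not use, were set beside the calls. Between days -18 and -9 of 2012, over which sugar began to rise, 5.82% of 18070 tested gene models rose and 9.30% fell. Of the gene models lower in 2014, 798 were tested there, and 165 of them (20.7%) rose and 93 (11.7%) fell. Of the gene models higher in 2014, 454 were tested, and 112 (24.7%) fell and 63 (13.9%) rose. In both groups the shares of rising and of falling gene models were above those over all tested, which is a description and was not tested. The medians of the log2 change were 0.01 in the lower group, -0.30 in the higher group and -0.05 over all tested gene models.

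Of the 105 gene models lower on all 7 later days, 11 rose (10.5%) and 4 fell (3.81%) between days -18 and -9 of 2012. Of the 550 tested gene models lower on day -14 and on 0 or 1 later days, 134 rose (24.4%) and 80 fell (14.5%). Between days -28 and -18 of 2012, 0% of 18208 tested gene models were called in either direction by limma, and 3246 were at an unadjusted p under 0.05.

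VIT_13s0067g02930 was the gene model of the lower group with the largest decrease that rose in 2012. Its level there was 24.7 ± 20.3 RPKM on day -18 and 1168 ± 192 on day -9 (log2 change 6.21 ± 0.65 SE by limma, adjusted p = 7.12e-06). After 1.07 ± 0.60 RPKM on day -14, it reached 175 ± 226 on day -6 and 1919 ± 134 on day 0 of 2014. In 2013 it stood at 236 ± 162 on day -14, 991 ± 378 on day -7 and 1694 ± 189 on day 0. The libraries of the seasons were apart on day -14 and overlapped on day 0, at 1711 to 2084 RPKM in 2014 and 1513 to 2041 in 2013. This gene model and the next were picked among those called lower on 0 or 1 later days. That they came near the 2013 level later was thus part of the choice.

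VIT_06s0061g00550 had a similar course. Its level was 0.461 ± 0.361 RPKM in 2014 and 129 ± 147 in 2013 on day -14 (log2 change -5.38 ± 0.66 SE by limma, adjusted p = 2.23e-05). On day 0 it was at 2968 ± 376 RPKM in 2014 and 2857 ± 170 in 2013. On day -14 of 2013 its libraries were at 9.00, 34.0 and 11.0 RPKM at 75% thinning, against 129, 382 and 212 at 50%. Its season change was -3.43 at 75% and -7.33 at 50% thinning alone, and that of VIT_13s0067g02930 was -5.16 at 75% and -7.79 at 50%. The test of the difference between thinning levels did not pass for either gene model (limma, adjusted p = 0.351 and 0.698).

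A pair of gene models that fell in 2012 shows both directions of the season difference. VIT_18s0001g14130 had 112, 141 and 160 RPKM as lowest, median and highest in 2014, against 12.0, 13.7 and 17.9 in 2013 (log2 change 3.20 ± 0.10 SE by limma, adjusted p = 3.7e-10). In 2012 it was at 22.6 ± 9.88 RPKM on day -18 and 3.79 ± 1.67 on day -9. Its 2014 level on day -14 was above every green sample of 2013 and 2012.

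VIT_05s0020g00930 went the other way, with 5.16, 6.04 and 7.38 RPKM in 2014, against 68.7, 96.4 and 104 in 2013 (log2 change -3.69 ± 0.11 SE by limma, adjusted p = 2.06e-10). In 2012 it was at 61.2 ± 19.9 RPKM on day -18 and 17.3 ± 3.12 on day -9. In 2014 it stood at 28.1 ± 12.4 RPKM on day -6, above its own value of day -14, while 2013 had 17.0 ± 2.39 on day -7.

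Set beside the 2012 berries of day -18, which held 0.93 to 1.29 g sugar per 100 ml, most called gene models of 2014 lay farther away than those of 2013. The mean log2 level of 2012 was nearer to 2013 in 402 of the 471 higher gene models (85.4%) and in 642 of the 802 lower ones (80.0%). Against 2012 day -28, whose sugar was below that of both seasons, it was nearer to 2013 in 353 of the 471 (74.9%) and 648 of the 802 (80.8%). These counts describe the groups and were not tested. The same share over all tested gene models was not computed, so nothing particular to the called ones is read from them. In the number of values under 0.01 RPKM, 2012 was also nearer to 2013 than to 2014, as given further on.

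**Figure D5:**
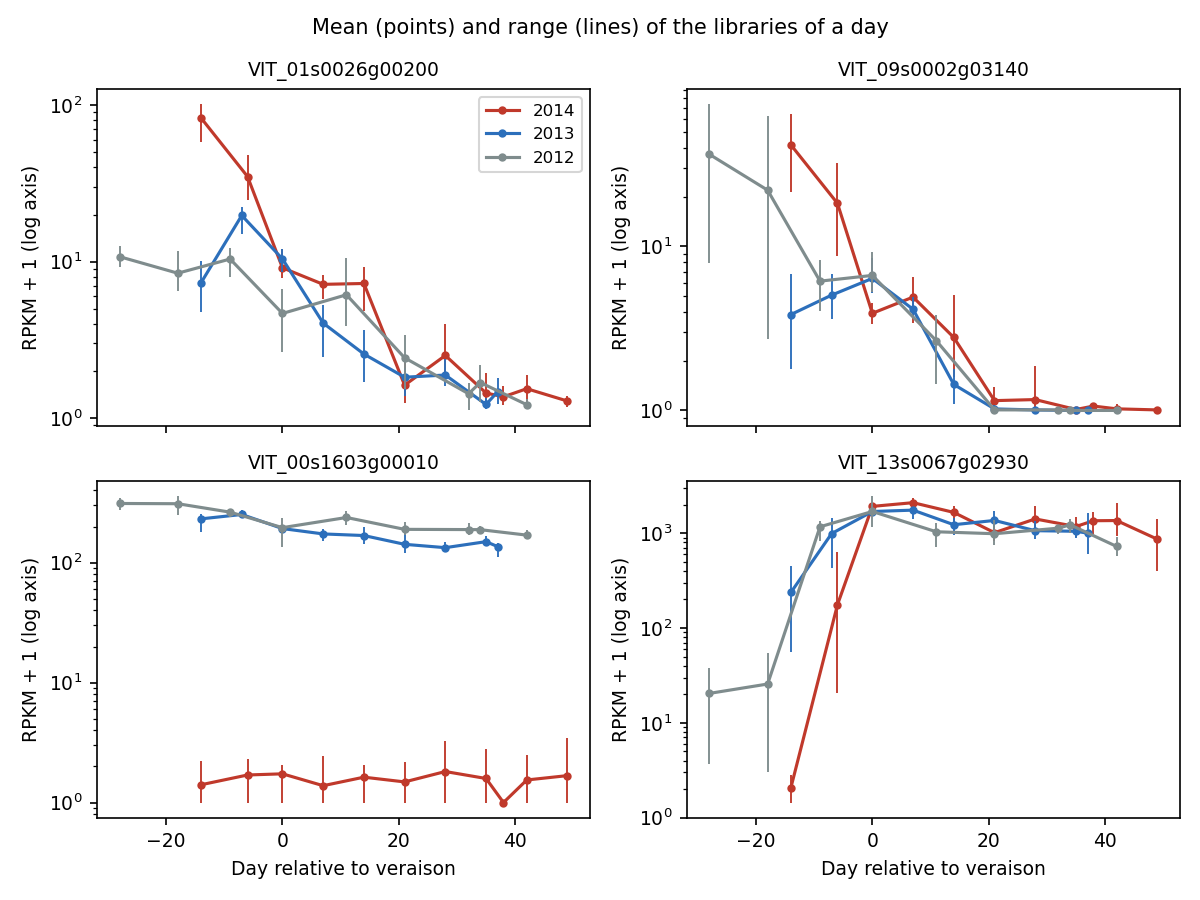
Mean RPKM + 1 (points, log axis) and range (lines) of the libraries of each day in 2014, 2013 and 2012. Shown are the 4 gene models with the largest increases and decreases on day -14 among those not set apart. VIT_00s1603g00010 stays near 0 through 2014, VIT_13s0067g02930 is low on day -14 of 2014 and reaches the level of the other seasons by day 0, and the gene models of the upper panels differ most on day -14.

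Some called gene models stood next to each other in the numbering. Of the 471 higher ones, 70 (14.9%) had an adjacent gene model called higher, against 3.48% of all tested gene models, and of the 802 lower ones, 158 (19.7%) had one called lower, against 5.08%. These shares were not tested. The longest unbroken run was 5 gene models in each direction. Near-identical neighbours can share reads, which makes single members of such runs uncertain, and the library protocol did not keep strand, so overlapping antisense gene models were not told apart.

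The gene models set apart numbered 10069 in the whole table, of which 707 passed the filter on day -14. Of these 707, 158 were called lower and 63 higher in 2014, 31.3% in all, against 8.19% of all tested gene models. Nothing is read from that share, because the low 2014 values that set them apart also enter the call. Among the 158 lower ones, 126 had a median of at least 0.1 RPKM over the 2013 libraries, 65 were listed at 0 in all 6 libraries of 2014 on day -14, and 31 were listed at 0 in all 63 libraries of 2014. Among the 63 higher ones, 57 had a median below 0.1 RPKM in 2013 as well. Unplaced sequence made up 37.3% of the 158.

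Low values differed between the seasons over the whole table. Values above 0 but under 0.01 RPKM numbered 6 to 11 per library in 2014, against 177 to 230 in 2013 on day -14 and 183 to 225 in 2012 on day -18. No gene model of 2014 shared its values with another gene model in all 63 libraries, against 12 that did so in all 54 libraries of 2013 and 14 in 2012. All 12 of 2013 were among those set apart in 2014. A 2014 median below 0.1 RPKM with a 2013 median of at least 1 was found in 104 tested gene models, and the reverse in 6. The part of these features in the season change was not tested.

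VIT_13s0067g01160 had the highest 2013 level among the set apart gene models called lower. It was listed at 0 in all 6 libraries of 2014, against 72.8, 570 and 985 RPKM as lowest, median and highest in 2013. Its log2 change was -8.60 ± 0.57 (standard error, by limma, adjusted p = 1.51e-07). The low 2014 values that set it apart also enter this call, so nothing is read from the p-value. On day -6 of 2014 it ranged between 0 and 215 RPKM, so single libraries of 2014 had high values. VIT_05s0077g02230 was listed at 0 in all 6 libraries of 2014, against 108, 137 and 147 RPKM in 2013, and on days -6, 0 and 35 of 2014 it was at 0 as well.

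Of those called higher, VIT_18s0041g00720 had the highest 2014 level, with 67.4, 106 and 153 RPKM. Its log2 change was 6.06 ± 0.64 (standard error, by limma, adjusted p = 6.45e-06). It would not have passed the filter without its 2014 libraries, so nothing is read from the p-value. In 2013 it was listed at 0 in 5 of the 6 libraries and at 16.5 in the remaining one, and in 2012 it was between 73.6 and 549 RPKM on day -18. On day 0 of 2014 it was listed at 0 in all 6 libraries. VIT_15s0046g02000 had 42.1, 54.3 and 75.1 RPKM in 2014, against 20.1, 23.5 and 48.4 in 2013, and the seasons overlapped (log2 change 1.06 ± 0.19 SE by limma, adjusted p = 0.000365). Its call was lost without replicate 2 of 75% thinning in 2013, where the log2 change of 0.94 was below the size required. It was set apart because its level was low after veraison in 2014, with a mean of 0.018 RPKM on day 35, against 0.017 in 2013.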

How the data were processed

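RNA of 12 pooled berry samples was sequenced as non-directional TruSeq libraries, per the labels' protocols. The authors deposited RPKM values for 29971 gene models. TopHat2 2.0.6 and Cufflinks 2.0.2 were used, per the submitters' processing notes. Genome build and settings are not given in the sources used here. Without counts in the RPKM table, counting error was not computed. Exact 0 values may be failed estimates.

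RPKM was tested as log2(RPKM + 1) with limma 3.58.1 (intensity trend) in R 4.3.3, so changes of low gene models are understated. Gene models with at least 1 RPKM in at least 3 of the 12 libraries were tested with season and thinning level, and adjusted by Benjamini-Hochberg. Later days and 2012 were fitted in the same way. Sugar was tested by exact permutation within thinning levels. The fit was tested on simulated data. Relative depth came from 1413 gene models detected in 2 to 8 libraries of 2013 and 2014. Per library, 52.3% to 80.8% of their values lay within 0.1 log2 of the fitted step, so it is approximate.

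Gene models to be shown were the 2 with the largest changes in each direction whose seasons did not overlap, without those set apart. In addition, the 2 with the largest decreases called on all later days, and 2 higher ones called on most later days, were shown. Ties among the higher ones were settled by size of the change. For 2012, 2 that rose and 2 that fell were shown, by size of the season change. Of those set apart, the 2 with the highest level per direction were shown, as was the 1 with a thinning difference. This narrows a planned rule of 15 per direction and was chosen after the values were seen, because no identifier matched the annotation used here. For the same reason the planned lists of gene groups, tissue markers and promoter motifs were not analysed. The comparison and the lists were chosen with earlier results of these data known.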

Additional observations from a re-analysis of the deposited data

Results flagged for a closer look

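In 32 sets of 6 libraries or samples, 1 value stood far from its neighbours in 4. The cut-off is one that flags about 1 in 20 sets of normally distributed values. Most sets here were RPKM values of gene models picked for their changes, so the count cannot be set against that share. Total RPKM of 2013 on day -14 had a highest value of 1034718, in replicate 1 of 50% thinning, which also had the highest relative depth. VIT_16s0098g01900 had a lowest 2014 value of 184 RPKM, in replicate 2 of 50% thinning, which was still above every 2013 library. VIT_18s0041g00720 had a highest 2013 value of 16.5 RPKM, with the other 5 listed at 0. VIT_15s0046g02000 had a highest 2013 value of 48.4 RPKM, in replicate 1 of 75% thinning.

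The season change differed between thinning levels in VIT_08s0007g08330, by a log2 of 3.22 at 75% minus 50% thinning (interaction in limma, adjusted p = 0.0266). It passed the filter only through the 3 libraries of 50% thinning in 2013, and the call was lost without any 1 of the 6 libraries of 2014 (limma, adjusted p = 0.0532 to 0.148). In 2014 all 6 libraries were below 0.2 RPKM, while in 2013 the 3 of 50% thinning were all above the 3 of 75% thinning.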

How the results depend on the processing

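The count of 1494 called gene models stayed within 1.5 times under 23 of 25 alternatives, as did the 534 higher and the 960 lower, which does not say that the gene models were the same. Without the size requirement the counts were 11421 in all, 4625 higher, 6796 lower and 409 set apart, against 221. With the mean of 2014 days -14 and -6 in place of day -14, 987 were called and 296 were higher, and with 2014 day -6 alone 1008 were called and 632 were lower. Both share the 2013 samples. With 2014 day -6 alone, the log2 changes of VIT_06s0061g00550 (0.69), VIT_15s0046g02000 (-0.20) and VIT_08s0007g08330 (1.31) had the opposite sign and did not pass. The calls of VIT_13s0067g02930 (-0.87, limma, adjusted p = 0.419) and VIT_16s0098g01900 (0.73) were lost there too. The cause was not tested. Leaving out 1 library gave 1459 to 1528 called, 498 to 576 higher, 938 to 988 lower and 212 to 225 set apart. A pseudocount of 0.1 gave 2135.

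The thinning interaction passed for 0 gene models with a pseudocount of 0.1 (1005 at an unadjusted p under 0.05) and for 0 without the filter (1348). It passed for 30 with all 55 groups in the fit, and for 0 to 9 without 1 library, the 9 without replicate 2 of 75% thinning in 2013. The 542 calls of day 21 became 845 with a pseudocount of 0.1, and 513 to 565 without 1 library. The sugar difference was -0.47 at 50% and -0.41 at 75% thinning alone, where the exact permutation test cannot go below p = 0.1, and -0.488 to -0.404 without 1 sample. The 165 gene models of the lower group rising in 2012 became 153 without 2 libraries of day -18 that stood apart, 170 with a pseudocount of 0.1 and 173 against day -28, settings added after the data were seen.

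With the replicate block the count was 1490. Deviations of same-numbered samples correlated at -0.51 to 0.22, and the labels tie no number to a shared source. The lists of gene groups were not run, because no identifier matched. Absolute depth is unknown, so the counting error of low values cannot be told apart from other spread.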
